A study of Rattus norvegicus with 9 samples.

Results

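Immediate early genes are transcribed within minutes of a signal, from factors already present in the cell, and their messages are short-lived. The set described here holds 10 such genes and related acute stress genes: Fos, Jun, Junb, Egr1, Atf3, Ier3, Gadd45b, Klf6, Myc and Btg2. Its members were all probe sets that the annotation of the array assigned to these symbols. That rule uses no measured value, but the symbols were picked when earlier results of these data were known. The annotation gave 14 probe sets to 9 of the 10 genes, out of 31042 probe sets and 14217 genes with a probe set of their own. It assigned none to Btg2 alone, whose signal is therefore not analysed here.

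Liver RNA of 9 male Goto-Kakizaki (GK) rats, a strain that becomes diabetic spontaneously, was hybridised to Affymetrix rat arrays, with 1 array per rat. The rats CUMS 1–3 (symptom label Major Depression) and CUMS 4–6 (Mild Depression) were stressed daily for 8 weeks (chronic unpredictable mild stress, CUMS). Control 1–3 (undepression) had none. All rats were already diabetic when the study allotted them at random to stress or control. The stressed rats were also housed singly, and how the controls were housed is not given in the sources used here. All rats of the study, controls included, received the glucose-lowering drug repaglinide by gavage before the livers were taken, and the livers were collected once blood sampling had ended. The comparison asks how the transcripts of the liver differed after long stress.

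In the liver these genes are known for rapid induction by growth factors, cytokines, adrenergic and glucagon signals, surgical injury and handling. Kinase cascades activate factors such as SRF, which binds the CArG box of the serum response element, and CREB, which binds the cAMP response element, and both types of site lie in the promoters of many immediate early genes. The proteins made are mostly transcription factors that drive a second wave of genes, or brakes on growth and cell death.

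The promoters of 5 of the 10 genes were given in the RefSeq table used, and are shown for the stretches whose letters match such sites. Each window runs from 250 bases before to 50 bases after the annotated start in build GRCr8. Egr1 lies at chr18:26736828-26737127 on the plus strand, Junb at chr19:40080876-40081175 on the plus strand, Klf6 at chr17:69458429-69458728 on the minus strand, Gadd45b at chr7:9430669-9430968 on the minus strand and Btg2 at chr13:48087641-48087940 on the minus strand. Capitals mark every match, on either strand, to the CArG box, the cAMP response element TGACGTCA or its core TGACG, the AP-1 site TGACTCA, the E-box CACGTG, the EGR site GCGGGGGCG or the TATA box TATAAA. The core is part of the full cAMP response element, so the 2 overlap.
Egr1: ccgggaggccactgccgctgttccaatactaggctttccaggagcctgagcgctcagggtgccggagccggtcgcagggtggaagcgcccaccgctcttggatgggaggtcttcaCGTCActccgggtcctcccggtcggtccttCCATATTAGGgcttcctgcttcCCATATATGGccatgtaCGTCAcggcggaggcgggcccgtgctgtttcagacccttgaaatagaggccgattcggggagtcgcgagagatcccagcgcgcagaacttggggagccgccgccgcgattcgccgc
Junb: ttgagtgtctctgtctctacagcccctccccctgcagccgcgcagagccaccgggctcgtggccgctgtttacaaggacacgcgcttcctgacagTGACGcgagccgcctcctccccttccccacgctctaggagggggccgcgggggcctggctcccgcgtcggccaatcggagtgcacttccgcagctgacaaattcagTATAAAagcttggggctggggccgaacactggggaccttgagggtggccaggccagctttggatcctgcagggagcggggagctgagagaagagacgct
Klf6: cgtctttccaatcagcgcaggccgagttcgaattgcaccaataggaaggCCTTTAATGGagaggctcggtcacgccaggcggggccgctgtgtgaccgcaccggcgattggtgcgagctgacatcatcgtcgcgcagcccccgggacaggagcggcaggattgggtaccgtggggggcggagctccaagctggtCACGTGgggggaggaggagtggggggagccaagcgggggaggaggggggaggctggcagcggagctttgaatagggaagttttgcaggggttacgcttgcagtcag
Gadd45b: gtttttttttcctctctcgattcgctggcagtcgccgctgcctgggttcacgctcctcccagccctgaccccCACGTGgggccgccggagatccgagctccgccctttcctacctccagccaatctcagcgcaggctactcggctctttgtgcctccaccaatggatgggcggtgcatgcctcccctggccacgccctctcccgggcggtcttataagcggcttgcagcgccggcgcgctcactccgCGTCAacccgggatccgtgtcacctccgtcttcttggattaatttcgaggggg
Btg2: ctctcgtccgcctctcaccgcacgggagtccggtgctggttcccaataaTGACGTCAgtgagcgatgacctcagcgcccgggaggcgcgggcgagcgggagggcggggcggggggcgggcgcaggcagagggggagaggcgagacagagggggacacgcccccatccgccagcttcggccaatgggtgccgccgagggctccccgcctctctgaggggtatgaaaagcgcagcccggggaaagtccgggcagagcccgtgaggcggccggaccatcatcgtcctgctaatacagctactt

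The Egr1 window held 2 CArG boxes, 105 and 83 bases before the start, and 2 cores of the cAMP response element, 135 and 66 bases before it. Klf6 held 1 CArG box 201 bases before the start and an E-box 56 bases before it. Junb had a core 155 bases and a TATA box 49 bases before the start, Gadd45b an E-box 178 bases and a core 3 bases before it, and Btg2 a full cAMP response element 201 bases before it. A CArG box was thus in 2 of 5 members and in 1.64% of 33469 rat promoter windows of the same length, the core in 4 of 5 and 21.2%, the full element in 1 of 5 and 1.83%, the E-box in 2 of 5 and 6.42%, and the TATA box in 1 of 5 and 14.2%. The AP-1 site, at 4.63% of windows, and the EGR site, at 2.73%, were in 0 of 5. A match is a description of the letters only.

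The deposited values were linear MAS5 signal intensities, scaled to the same trimmed mean of 500.2 on each array, with medians of 107.2 to 133.4. Control 3 stood apart from the other arrays, with a median correlation of 0.951 with the others, against 0.965 to 0.972 for the remaining 8. It had the highest signal of all rats for 22.4% of the 10403 genes that passed the signal filter. Its 3′ to 5′ signal ratio for the actin control probe sets, a gauge of RNA breakdown that goes up with it, was 2.51, against 4.96 in CUMS 4, 5.23 in CUMS 2 and 3.18 to 3.73 in the others. The same ratio for GAPDH did not set control 3 apart, at 1.34, while it was 1.46 in CUMS 4, 1.75 in CUMS 2 and 1.32 to 1.37 in the others. The comparisons of the members with control are therefore also given without control 3. The filter dropped the dimmest 40% of probe sets, ranked on their mean over all arrays, and a log2 fold change is the mean log2 signal of the stressed rats minus that of the controls. The number of arrays limits the precision.

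All 9 measured genes, by the brightest probe set of each, had a lower mean log2 signal in the stressed livers than in the control livers. This held in CUMS 1–3 as well as in CUMS 4–6, but no difference passed the test. Of all 14 probe sets, 13 were lower in CUMS 1–3 and 12 in CUMS 4–6. In CUMS 1–3 against control the log2 fold changes ran from −1.14 for Gadd45b to −0.11 for Klf6, with a median of −0.68, while the median of all genes was −0.02 and 53.5% of genes had a lower mean. In CUMS 4–6 the range was −0.88 to −0.07, with a median of −0.26, beside −0.02 over all genes, of which 54% were lower. Both comparisons used the same 3 control livers. Without control 3, 8 of the 9 genes were lower in CUMS 1–3 (median −0.29) and 5 of 9 in CUMS 4–6 (median −0.08). The median in CUMS 4–6 also moved with other rats, to −0.53 without control 1, −0.46 without CUMS 4, −0.41 without control 2 and −0.15 without CUMS 5.

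**Figure D1:**
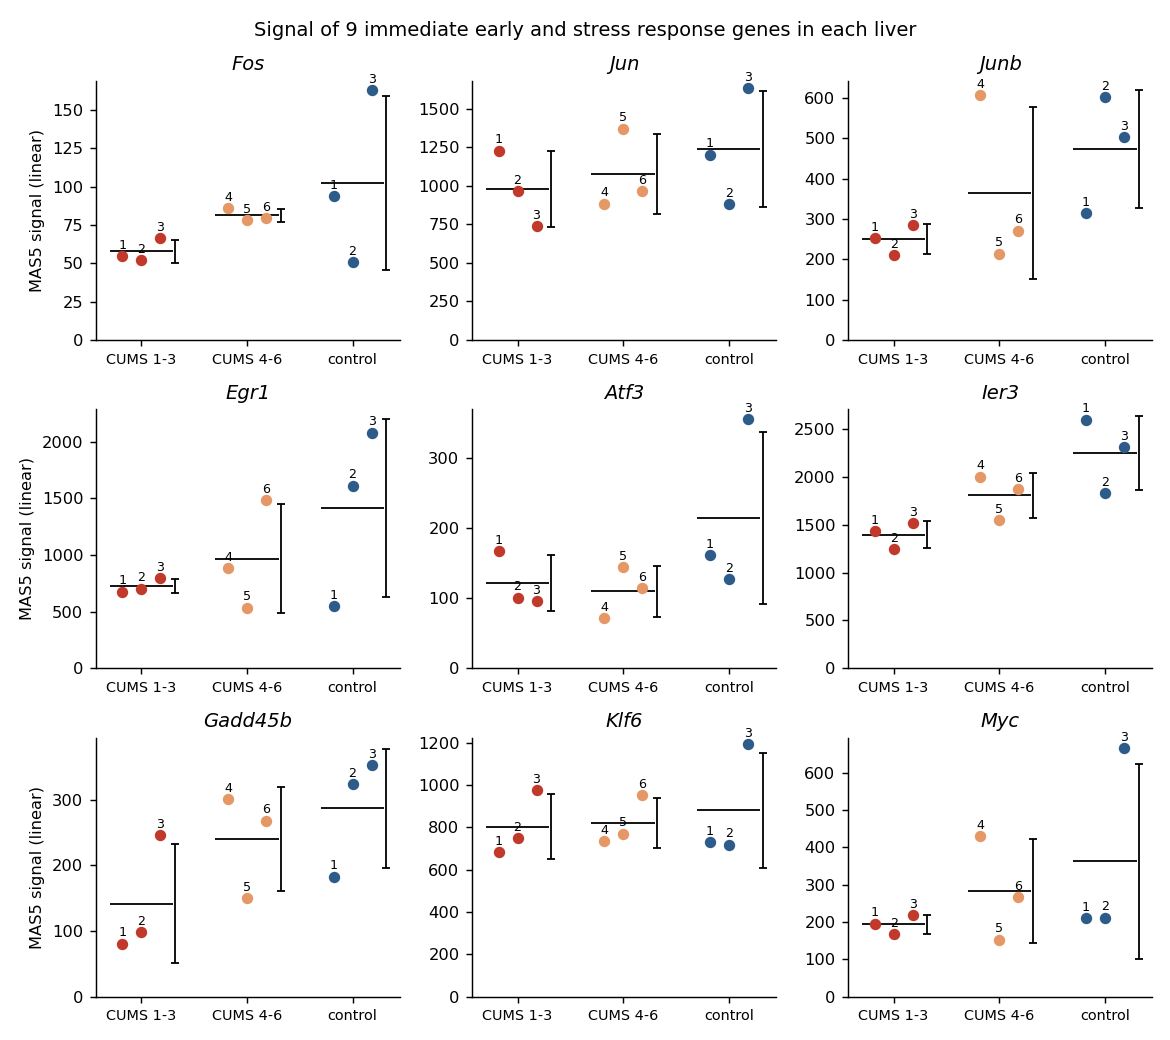
MAS5 signal (linear) of the 9 measured genes in each liver, 1 probe set per gene, in CUMS 1–3, CUMS 4–6 and control. Points are rats with their number, lines are group means and bars are 1 SD (n = 3). CUMS 1–3 lie close together in most panels, and control 3 is the highest of all rats in 7 of the 9.

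By limma with Benjamini-Hochberg adjustment over 18625 probe sets, 0 probe sets (0%) were called at an adjusted p of 0.05 when CUMS 1–3 were set against control, and 1259 (6.76%) had an unadjusted p under 0.05. Of the 14 probe sets of the set, 13 passed the filter and adjusted p ran from 0.551 to 0.987, the 1 below the filter taken without it. At an unadjusted p under 0.05 there were 3, Ier3, Gadd45b and Junb, all lower in CUMS 1–3, and 4.17% of all probe sets were lower at that level. Signals of CUMS 1–3 lay entirely below those of the controls for 3 of 14 probe sets, beside 6.32% of all probe sets. The test of the study, which asks for p below 0.05 without adjustment and a ratio of at least 1.5 or at most 0.5, also passed 0 of the 14, beside 0.699% of all probe sets passing in the lower direction.

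In CUMS 4–6 against control, limma called 0 probe sets (0%), with 1170 (6.28%) at an unadjusted p under 0.05. Of the 14, 0 had an unadjusted p under 0.05, beside 3.55% of all probe sets that were lower at that level. None of the 14 lay entirely below the controls, beside 6.29% of all. With all 6 CUMS rats against control, 0 were called (0%) and 1477 (7.93%) had an unadjusted p under 0.05. Among the 14 these were 2, Ier3 and Atf3, beside 4.86% of all that were lower. None of the 14 was free of overlap, beside 2.15% of all. The test of the study passed 0 of the 14 in either comparison, with 0.876% of all probe sets passing lower in CUMS 4–6 and 0.883% in all CUMS.

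**Figure D2:**
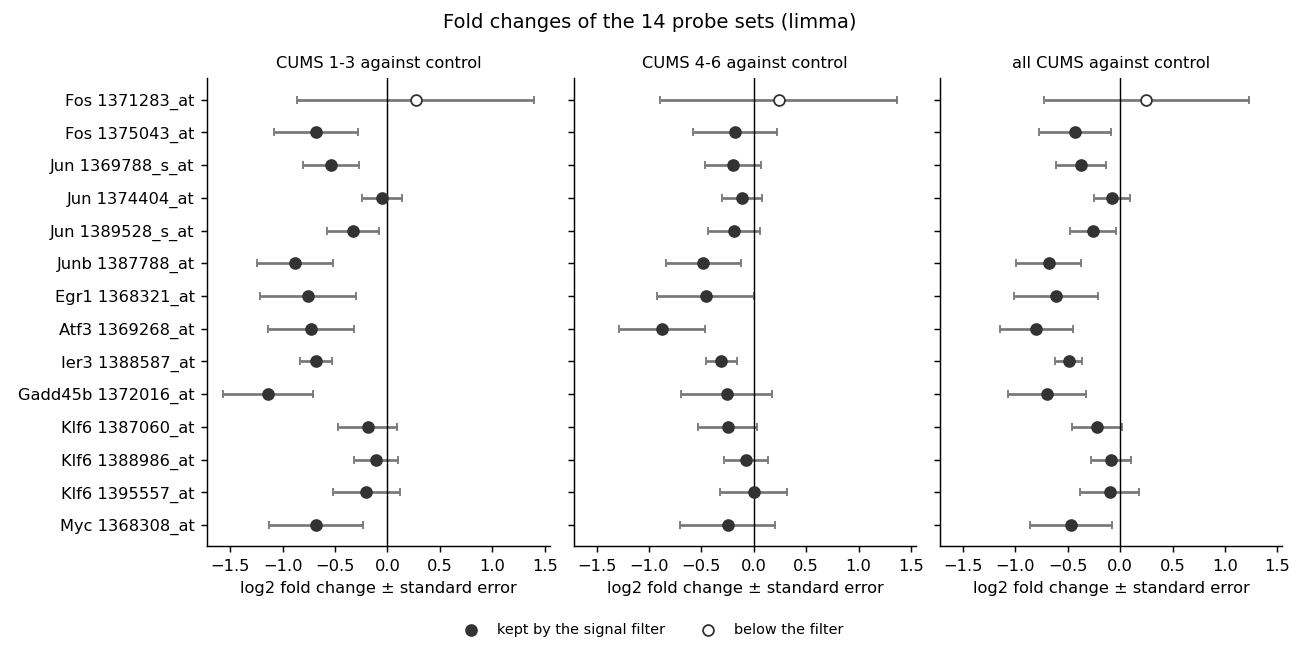
Log2 fold change with its standard error from limma for the 14 probe sets, in CUMS 1–3, CUMS 4–6 and all CUMS against control. Filled points passed the signal filter, and the open point is the dim Fos probe set. In CUMS 1–3, 13 of 14 points lie below 0, and the Jun and Klf6 genes have probe sets close to 0.

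Fos, Jun and Junb encode subunits of AP-1, a dimer of Fos and Jun proteins that binds TGACTCA. Fos read 54.7, 52 and 66.4 in CUMS 1–3, 86.2, 78 and 79.4 in CUMS 4–6, and 93.6, 50.8 and 163 in control 1–3. CUMS 1–3 thus lay below every rat of CUMS 4–6, while the controls spanned both groups and held the highest and the lowest rat. The means were 57.7 ± 7.66 in CUMS 1–3, 81.2 ± 4.37 in CUMS 4–6 and 102 ± 56.4 in controls (SD, n = 3 each). Against control, CUMS 1–3 gave a log2 fold change of −0.68 (standard error 0.40, limma adjusted p = 0.78), or −0.27 without control 3 and −1.10 without control 2. CUMS 4–6 gave −0.18 (standard error 0.40, limma adjusted p = 0.968), and 0.23 without control 3 or −0.60 without control 2. This probe set was dim, above the median signal of its array in 1 of 9 livers. A second Fos probe set read 4.03 to 66.1 in the 6 CUMS rats and 5.85 to 27.5 in the controls, never above the array median, with CUMS 5 highest and CUMS 2 lowest. Without the filter its log2 fold change in CUMS 1–3 was 0.27, with a standard error of 1.13.

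Junb, a Jun relative that can also restrain growth, read 253, 211 and 285 in CUMS 1–3, 608, 214 and 271 in CUMS 4–6, and 315, 602 and 502 in control 1–3. The 3 livers of CUMS 1–3 lay below all controls. CUMS 5 and CUMS 6 were at the level of CUMS 1–3, and CUMS 4 was the highest of all 9 rats. CUMS 1–3 stood at 0.543 times the control level (log2 −0.88, standard error 0.36, unadjusted p = 0.0325, limma adjusted p = 0.733), and the log2 value was −0.81 without control 3. In CUMS 4–6 it was −0.48 (standard error 0.36, adjusted p = 0.85), and −0.41 without control 3. That value moved more with other rats, to −0.92 without CUMS 4, −0.75 without control 1, −0.28 without control 2 and −0.17 without CUMS 5. All 6 CUMS rats together gave −0.68 (standard error 0.31, unadjusted p = 0.0521, adjusted p = 0.628).

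Jun had 3 probe sets, which disagreed in size. The brightest read 1228, 967 and 739 in CUMS 1–3, 884, 1370 and 967 in CUMS 4–6, and 1202, 880 and 1634 in control 1–3, with all groups overlapping. Its log2 fold change in CUMS 1–3 was −0.33 (standard error 0.25, limma adjusted p = 0.848), and −0.10 without control 3, −0.14 without CUMS 3, −0.50 without CUMS 1 and −0.55 without control 2. In CUMS 4–6 it was −0.19, and 0.04 without control 3. Another read 397, 298 and 240 in CUMS 1–3, 404, 557 and 255 in CUMS 4–6 and 431, 414 and 490 in controls, so that CUMS 1–3 lay below all controls (−0.54, standard error 0.27, adjusted p = 0.753), and the value was −0.47 without control 3. These 2 carry the suffix of probe sets that may also match other transcripts, so their signals are uncertain as Jun. The third, without that suffix, averaged 321 ± 21.9 in CUMS 1–3, 312 ± 72.4 in CUMS 4–6 and 334 ± 48.9 in controls (SD, n = 3 each). Its log2 fold change was −0.05 in CUMS 1–3, and 0.07 without control 3.

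Egr1 is a zinc finger factor known as a fast target of SRF, and its promoter above holds the CArG boxes in capitals. It read 677, 704 and 793 in CUMS 1–3, 884, 535 and 1482 in CUMS 4–6, and 546, 1612 and 2079 in control 1–3. The rats of CUMS 1–3 sat within a narrow band, and both other groups spanned it. Means were 725 ± 60.9 in CUMS 1–3, 967 ± 479 in CUMS 4–6 and 1413 ± 786 in controls (SD, n = 3 each). Set against control, CUMS 1–3 gave a log2 fold change of −0.76 (standard error 0.46, limma adjusted p = 0.786), and −0.38 without control 3 but −1.34 without control 1, the lowest control. CUMS 4–6 gave −0.46 (standard error 0.46, limma adjusted p = 0.899), and −0.08 without control 3. It was −0.10 without CUMS 5, −0.26 without control 2, −0.83 without CUMS 6 and −1.04 without control 1.

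Atf3, a repressor of the CREB family induced by many stresses, was the only member whose brightest probe set stood lower in CUMS 4–6 than in CUMS 1–3. It read 167, 101 and 95.8 in CUMS 1–3, 71.1, 144 and 114 in CUMS 4–6, and 162, 127 and 355 in control 1–3. Control 3 had by far the highest signal, and the other controls lay within the range of the CUMS rats. On the log2 scale CUMS 1–3 differed from control by −0.73 (standard error 0.41, limma adjusted p = 0.77) and CUMS 4–6 by −0.88 (standard error 0.41, limma adjusted p = 0.779). Without control 3 these became −0.29 in CUMS 1–3 and −0.45 in CUMS 4–6. All 6 CUMS rats stood at 0.573 times control (log2 −0.80, standard error 0.35, unadjusted p = 0.0451, adjusted p = 0.617), and the log2 value was −0.37 without control 3.

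Klf6, a zinc finger factor expressed in hepatocytes and in stellate cells, showed the smallest differences. Its brightest probe set read 685, 750 and 975 in CUMS 1–3, 735, 771 and 953 in CUMS 4–6, and 730, 719 and 1193 in control 1–3. The groups overlapped throughout, apart from control 3 at the top. Log2 fold changes were −0.11 in CUMS 1–3 and −0.07 in CUMS 4–6 (standard error 0.21 each, adjusted p = 0.948 and 0.976 from limma), and its sign turned without control 3, to 0.13 and 0.17. The other 2 probe sets gave −0.19 and −0.20 in CUMS 1–3, and 0.10 and 0.09 without control 3.

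Myc, a transcription factor that drives ribosome and nucleotide synthesis, read 196, 168 and 218 in CUMS 1–3, 430, 153 and 268 in CUMS 4–6, and 211, 212 and 665 in control 1–3. All rats but CUMS 4 and control 3 lay between 153 and 268. CUMS 1–3 gave a log2 fold change of −0.68 (standard error 0.45, limma adjusted p = 0.812), and −0.13 without control 3. In CUMS 4–6 it was −0.25, and 0.30 without control 3, 0.13 without CUMS 5, −0.53 without control 1 or control 2 and −0.62 without CUMS 4.

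Ier3, a small protein that modulates cell survival and the ERK pathway, gave the smallest p of the set. It read 1433, 1244 and 1515 in CUMS 1–3, 2004, 1546 and 1871 in CUMS 4–6, and 2598, 1835 and 2315 in control 1–3. Every rat of CUMS 1–3 lay below every rat of both other groups, while CUMS 4–6 and control overlapped through CUMS 4, CUMS 6 and control 2. The means were 1398 ± 139 in CUMS 1–3, 1807 ± 235 in CUMS 4–6 and 2249 ± 386 in controls (SD, n = 3 each). CUMS 1–3 stood at 0.626 times the control level, a log2 fold change of −0.68 (standard error 0.15, unadjusted p = 0.0011, adjusted p = 0.551 from limma). Without control 3 the value was −0.65. CUMS 4–6 stood at 0.807 times control (log2 −0.31, standard error 0.15, adjusted p = 0.782), and −0.28 without control 3 or −0.20 without CUMS 5 or control 1. In all 6 CUMS rats the log2 fold change was −0.49 (standard error 0.13, unadjusted p = 0.00357, adjusted p = 0.467), and −0.47 without control 3.

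Gadd45b, a stress sensor that binds MAP kinase kinases and acts in growth arrest and survival of hepatocytes, had the lowest fold change of the set in CUMS 1–3. It read 80.9, 98.2 and 246 in CUMS 1–3, 301, 150 and 268 in CUMS 4–6, and 183, 324 and 353 in control 1–3. CUMS 1 and CUMS 2 lay below all other rats, and CUMS 3 lay within the range of the other groups. CUMS 1–3 stood at 0.454 times the control level, a log2 fold change of −1.14 (standard error 0.43, unadjusted p = 0.023, adjusted p = 0.732 from limma). It was −0.96 without control 3, and in CUMS 4–6 it was −0.26 (standard error 0.43, adjusted p = 0.944). The CUMS 4–6 value was −0.08 without control 3, −0.14 without control 2, 0.05 without CUMS 5, −0.46 without CUMS 4 and −0.56 without control 1.

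**Figure D3:**
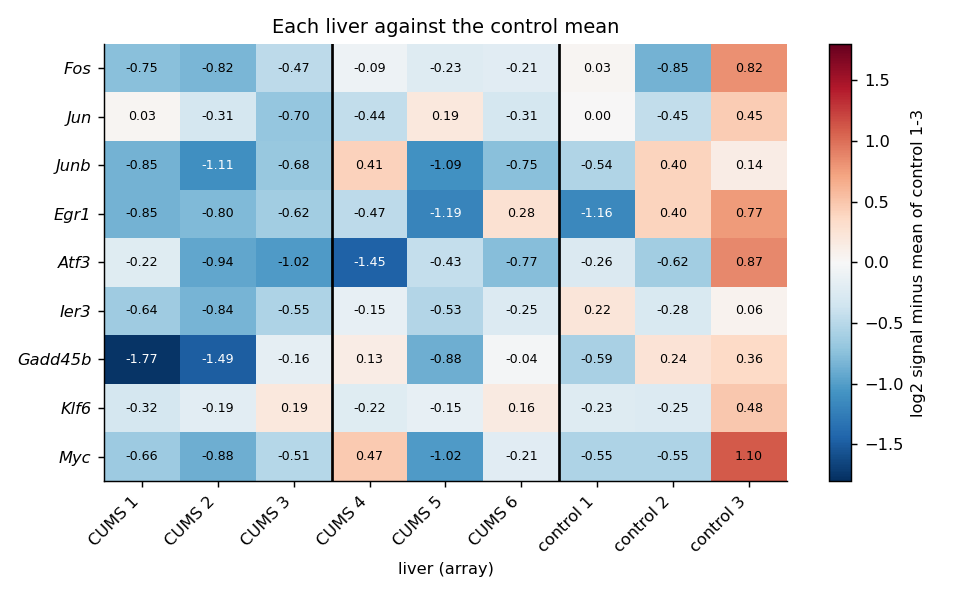
Log2 signal of each liver minus the mean of control 1–3, for the 9 measured genes (1 probe set each), in CUMS 1–3, CUMS 4–6 and control 1–3. Red is above and blue below the control mean. The 3 livers of CUMS 1–3 are below it for nearly all genes, CUMS 4 mixes Junb, Myc and Gadd45b above it with Atf3 at −1.45, and control 3 is above it for all 9.

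Between the stressed groups, 8 of 9 genes, by the brightest probe set of each, had a lower mean in CUMS 1–3 than in CUMS 4–6. Of all 14 probe sets, 10 were lower. The median log2 fold change of the 9 genes was −0.37, beside −0.01 over all genes, of which 51.9% were lower. Limma called 0 probe sets (0%), with 530 (2.85%) at an unadjusted p under 0.05. Ier3 alone of the 14 probe sets had an unadjusted p under 0.05, beside 1.32% of all probe sets lower at that level. Its log2 fold change was −0.37 (standard error 0.15, unadjusted p = 0.0363, adjusted p = 1). Groups did not overlap for Ier3 and for the brighter Fos probe set, 2 of 14, beside 4.37% of all probe sets. Gadd45b gave −0.88 (standard error 0.43, unadjusted p = 0.0666, adjusted p = 1), and the test of the study passed 0 of the 14, beside 0.557% of all probe sets lower.

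The genes varied more from rat to rat in some groups than in others. The median SD of the log2 signal was 0.22 over the members in CUMS 1–3, beside 0.18 over all genes, with 7 of 9 members above that. It was 0.52 in CUMS 4–6, beside 0.18 (8 of 9 above), and 0.52 in control, beside 0.21 (9 of 9 above). Control 3 was the highest of 9 rats for 7 of 9 members, Ier3 being highest in control 1 and Junb in CUMS 4. Among the 6 CUMS rats, CUMS 4 was highest for 5 of 9 members (55.6%), beside 20.3% of all genes. The mean over members, as log2 signal minus the control mean, was −0.67, −0.82 and −0.50 in CUMS 1–3, −0.20, −0.59 and −0.23 in CUMS 4–6, and −0.34, −0.22 and 0.56 in control 1–3. CUMS 4, CUMS 6, control 1 and control 2 lay side by side. CUMS 5 lay within the range of CUMS 1–3, and CUMS 1–3 and CUMS 5 lay below control 1 and control 2.

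Markers of other liver cells also stood high in control 3. The 7 measured markers of stellate cells and fibroblasts averaged −1.37 to −1.26 in CUMS 1–3 and −1.05 to −0.78 in CUMS 4–6, against −0.69, −0.68 and 1.36 in control 1–3, on the same scale. In CUMS 1–3 against control their median log2 fold change was −1.56, and that of the bile duct markers −0.71, both lower than the −0.68 of the members. Control 3 was highest for 7 of the 7 stellate and fibroblast genes, for 4 of 4 bile duct markers and for 5 of 7 markers of Kupffer cells and macrophages. The Kupffer marker Clec4f went the other way and was lowest of all rats in control 3, at 4304. C1qa read 6314 in control 3 and was highest in CUMS 6, at 7563. The bile duct markers ran from −1.22 to −0.53 in CUMS 1–3, from −1.01 to −0.79 in CUMS 4–6 and from −0.69 to 1.20 in control, and the Kupffer markers from −0.75 to −0.14 in CUMS 1–3, from −0.76 to −0.10 in CUMS 4–6 and from −0.32 to 0.35 in control. The 7 measured hepatocyte markers lay between −0.17 and 0.04 in CUMS 1–3, 0.10 and 0.19 in CUMS 4–6 and −0.15 and 0.09 in control. The part of these cells in the signals of Fos, Egr1, Myc and the others was not tested. In liver tissue, fewer cells of a type and less RNA per cell cannot be told apart.

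**Figure D4:**
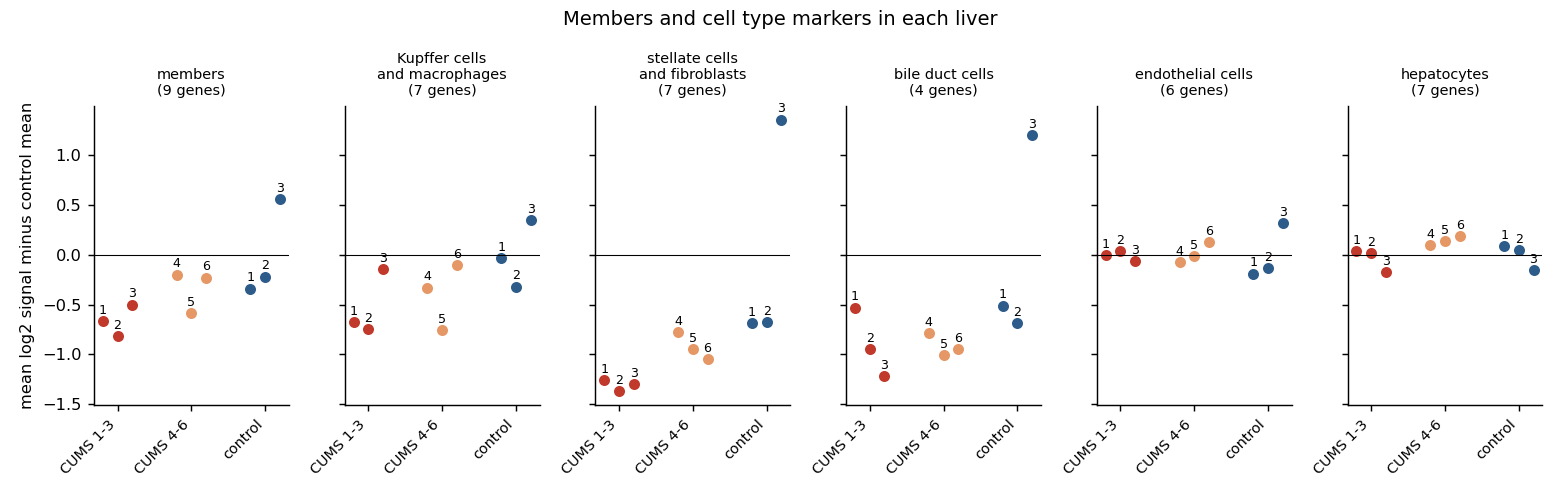
Mean log2 signal minus the control mean in each liver (CUMS 1–3, CUMS 4–6, control) for the 9 measured genes and for markers of Kupffer cells, stellate cells, bile duct cells, endothelial cells and hepatocytes. Points are rats with their number. By these means, control 3 stands above all other rats for the members and for Kupffer, stellate, bile duct and endothelial markers. Single markers can differ, and Clec4f (Kupffer) and Kdr (endothelial) are lowest in control 3. Hepatocyte markers stay near 0.

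Related genes outside the set were taken from lists of the same pathways, with 0 calls in every list and comparison by limma. Those named below had the smallest unadjusted limma p of their list, in all CUMS or in CUMS 1–3 against control. Their differences from control are therefore picked, not typical of the list. Among 18 of 20 listed other immediate early transcription factors that passed the filter, 15 had a lower mean in all CUMS rats against control, 1 of them with an unadjusted p under 0.05, and the median log2 fold change was −0.31, −0.23 in CUMS 1–3 and −0.28 in CUMS 4–6. Irf1, a factor of interferon signalling, read 858, 787 and 1089 in CUMS 1–3, 1294, 832 and 1083 in CUMS 4–6, and 1314, 1387 and 1112 in control 1–3. CUMS 1–3 lay below all controls (log2 −0.49, standard error 0.18, adjusted p = 0.732). Nr4a3, an orphan nuclear receptor, averaged 53.9 ± 19.2 in CUMS 1–3, 100 ± 14.5 in CUMS 4–6 and 135 ± 100 in controls (SD, n = 3 each). Id3, an inhibitor of helix-loop-helix factors, averaged 1077 ± 289 in CUMS 1–3, 1053 ± 152 in CUMS 4–6 and 1362 ± 297 in controls.

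Feedback inhibitors are induced together with immediate early genes and shut the signal down. The list used also holds Ier2 and Ier5, immediate early genes that are not such inhibitors but are counted with them. Of 18 measured, out of 21 listed, 15 were lower in CUMS 1–3, 13 in CUMS 4–6 and 14 in all CUMS, with medians of −0.20, −0.20 and −0.18. Spry1, which dampens growth factor receptor signals, read 218, 183 and 185 in CUMS 1–3, 234, 163 and 228 in CUMS 4–6, and 346, 243 and 307 in control 1–3. All 6 CUMS rats lay below all 3 controls. This holds for 2.15% of all probe sets, but Spry1 was picked for its small p, so that share does not gauge it. The log2 fold change in all CUMS was −0.57 (standard error 0.18, unadjusted p = 0.00984, adjusted p = 0.528 from limma), and −0.54 without control 3. Socs2 and Tnfaip3, brakes on growth hormone and on NF-kB signals, gave −0.72 and −0.46 in all CUMS, with overlapping groups. Socs2 was −0.27 without control 3 and −1.27 without control 2, and Tnfaip3 was −0.15 without control 3 and −0.86 without control 2.

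Upstream of the set, 12 of 15 measured kinases and SRF or CREB factors, out of 21 listed, were lower in all CUMS, with a median of −0.06. Srf itself read 251, 332 and 353 in CUMS 1–3, 340, 274 and 320 in CUMS 4–6, and 383, 376 and 417 in control 1–3. All CUMS rats again lay below all controls (log2 −0.34, standard error 0.15, unadjusted p = 0.0439, adjusted p = 0.61 from limma), and the value was −0.29 without control 3. Srf was also picked for its small p. Map2k1, the kinase that activates ERK, gave −0.12 in all CUMS (standard error 0.10). Map2k3, a kinase of the p38 pathway, gave 0.05 (standard error 0.14).

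The 7 measured relatives of AP-1, of 12 listed, had medians near 0, at −0.05 in CUMS 1–3, 0.05 in CUMS 4–6 and 0.01 in all CUMS. Jdp2, which pairs with Jun and represses AP-1 sites, read 59.8, 56 and 76.1 in CUMS 1–3, 59.8, 48.6 and 100 in CUMS 4–6, and 80.8, 96.5 and 230 in control 1–3. Mafg, a small Maf protein, stood the other way, at 657, 675 and 770 in CUMS 1–3, 738, 641 and 603 in CUMS 4–6 and 618, 444 and 492 in controls. CUMS 1–3 lay above all controls for Mafg (log2 0.45, standard error 0.16, adjusted p = 0.722) and below all of them for Jdp2 (−0.94, standard error 0.43, adjusted p = 0.74). Without control 3 the Jdp2 value was −0.48.

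Genes of growth arrest and damage response were listed by function, and only some of them are relatives of Gadd45b or Btg2. Of 17 measured (18 listed), 10 were higher in CUMS 1–3, with a median of 0.09, and 12 in CUMS 4–6, with a median of 0.16. Plk2, a kinase induced in stress and cell cycle arrest, read 1669, 1857 and 1735 in CUMS 1–3, 1722, 2571 and 1880 in CUMS 4–6, and 1584, 1543 and 1460 in control 1–3. All 6 CUMS rats lay above all controls (log2 0.30, standard error 0.13, unadjusted p = 0.0347, adjusted p = 0.60 from limma). This holds for 1.52% of all probe sets, but Plk2 was picked for its small p, so that share does not gauge it. Btg3 and Tob1, of the same antiproliferative family as Btg2, gave −0.42 (standard error 0.22) and 0.25 (standard error 0.13) in all CUMS, with overlapping groups, and Tob1 was 0.14 without control 3 and 0.44 without control 1.

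Around Myc, 8 measured partners and antagonists (10 listed) had a median of 0.04 in all CUMS, and 14 growth targets (15 listed) one of −0.07. Max, the partner of Myc, gave −0.01 (standard error 0.09), and Mxi1, which competes with Myc for Max, gave 0.08. Mlx, a related partner, gave 0.10. Of the targets, the cyclin Ccnd1 read 530, 326 and 472 in CUMS 1–3, 422, 264 and 355 in CUMS 4–6, and 629, 511 and 605 in control 1–3. CUMS 4–6 lay below all controls, at a log2 fold change of −0.77 (standard error 0.22, unadjusted p = 0.0054, adjusted p = 0.744 from limma), and in CUMS 1–3 the value was −0.42, or −0.21 without CUMS 2. The ribosome factors Nop58 and Pes1 gave −0.19 and 0.19 in all CUMS.

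Secreted early response proteins, cytokines and growth factors among them, had a median of −0.66 in CUMS 1–3 and −0.27 in CUMS 4–6 over 7 measured genes of 14 listed. Their mean log2 signal minus the control mean was −0.28, −0.32 and 0.60 in control 1–3, so control 3 weighs on these medians. Il1b, an inflammatory cytokine made chiefly by macrophages, read 278, 156 and 242 in CUMS 1–3, 299, 202 and 290 in CUMS 4–6, and 600, 287 and 764 in control 1–3. The log2 fold change in all CUMS reached −1.09 (standard error 0.30, unadjusted p = 0.0041, adjusted p = 0.47 from limma), and −0.80 without control 3. Ccl2, a chemokine for monocytes, read 47 to 79.2 in CUMS 1–3 and 49.6 to 88.5 in CUMS 4–6, against 162, 58.6 and 875 in control 1–3. Its log2 fold change in CUMS 1–3 was −1.68, and −0.62 without control 3 or −2.57 without control 2. Vegfa, an endothelial growth factor, was the other way, 5271 ± 961 in CUMS 1–3, 4400 ± 245 in CUMS 4–6 and 4039 ± 276 in controls (SD, n = 3 each), with CUMS 1–3 above all controls (log2 0.37, standard error 0.13, adjusted p = 0.722, and 0.23 without CUMS 2).

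Since glucocorticoids are known to restrain AP-1, 8 measured glucocorticoid responsive genes of 9 listed were set beside the members. Their median was 0.08 in CUMS 1–3, −0.27 in CUMS 4–6 and −0.04 in all CUMS, with 4 higher and 4 lower. Sgk1, a kinase of salt and glucose transport, read 1284, 1113 and 1031 in CUMS 1–3, 1064, 1010 and 1525 in CUMS 4–6, and 1571, 1421 and 2031 in control 1–3. It lay below all controls in CUMS 1–3 (log2 −0.54, standard error 0.18, adjusted p = 0.722 from limma). Mt2A, a metallothionein, ranged from 2730 to 19188 in CUMS 1–3, 3728 to 18522 in CUMS 4–6 and 12027 to 19497 in controls.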

How the data were processed

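Liver RNA of 9 rats was read on 9 arrays, and the 3 groups of 3 came from the symptom labels. The authors normalized the scans with MAS5, and the deposited values are signal intensities on a linear scale. The 57 control probe sets were left out, and the 586 signals below 1 were set to 1 before log2. Symbols came from the platform annotation and covered 20826 probe sets with 1 symbol. Another 436 had several symbols and 9780 none, and these were not named. RefSeq symbols, matched by Entrez ID, served only to find listed genes that the annotation holds under another symbol.

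Probe sets in the lower 40% of mean log2 signal were dropped, leaving 18625. The groups were fitted together in R 4.3.3 with limma 3.58.1 (6 residual degrees of freedom, variances following the signal), and p was adjusted by Benjamini-Hochberg over all probe sets, with 0.05 as threshold. The fit was tested on simulated data. The test of the study was run as an equal-variance ANOVA of the groups compared, on log2 signals without the filter. It took an unadjusted p under 0.05 and a ratio of at least 1.5 or at most 0.5. Other settings of the study's own ANOVA are not given, so this is a version of that test. For a gene with several probe sets, that with the highest mean signal stands for it. Python 3.11.15 with pandas 2.3.3 did the summaries.

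The rule for the members uses no measured value, but the symbols and the lists were chosen with earlier results of these data known. Named genes are all members, in each related list the 2 genes with the smallest p in all CUMS and in CUMS 1–3 against control, and the 5 genes most like the members. As alternatives, arrays were quantile normalized or centred on their median, 50 was added before log2, the filter was dropped or raised to the upper 40%, and fits were made with the compared groups alone, without the variance trend, with array weights and with the replicate number as a block. The mean over probe sets, the test of the study and leaving out each rat were tried too. Detection calls and the other experiments of the study were not used.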

Additional observations from a re-analysis of the deposited data

Results flagged for a closer look

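Among the 6 CUMS rats, the Junb signal of CUMS 4, at 608, stood far above that of the others, which lay between 211 and 285. On the log2 scale, the gap to the next rat was 0.716 of the range, larger than the outlier limit of 0.625 for a group of 6. All 14 probe sets were screened and this was the 1 that passed the limit. Chance alone gives such a gap in about 1 of 20 groups, so 1 among 14 screened probe sets is not unusual. The cause was not tested.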

How the results depend on the processing

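No probe set of the members was called by limma under any alternative run. Of 1594 alternative values for single genes, 1562 kept their direction and their side of the threshold and 32 changed sign. Of 206 alternative values for counts of calls and medians, 202 stayed within the limits set. The others were the median of the members in CUMS 1–3 against control, −0.68, which ranged from −0.85 to −0.29 when each rat was left out and was −0.29 without control 3, and the number of probe sets called over the whole array. That number, 0 by limma, was 1 by the test of the study with Benjamini-Hochberg in CUMS 1–3 against control, and 1 with centring on the median in CUMS 4–6 and in all CUMS against control. None of these was a member, and the cause was not tested. Counts this low do not show that changes are absent. The other medians of the members against control also moved without control 3. In CUMS 4–6 the median went from −0.26 to −0.08, and it was −0.53 without control 1. In all CUMS it went from −0.49 to −0.23, with 7 of 9 members lower.

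The replicate number as a block in CUMS 1–3 against control gave 0 calls, and adjusted p of 0.315 for Ier3, 0.437 for Gadd45b and 0.514 for Junb. Rats with the same number correlated at 0.003, −0.049 and 0.14 after the group means were removed. Rats with different numbers ran from −0.149 to 0.155. With 3 rats a group, these values cannot show whether an equal number stands for a shared batch or pairing.

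With each rat left out in turn, the log2 fold changes that changed sign were, in CUMS 1–3 against control, Jun (−0.13 to 0.07, probe set without the suffix), Klf6 (−0.25 to 0.13, and −0.42 to 0.10 and −0.38 to 0.15 in its other probe sets) and Mxi1 (−0.07 to 0.23). In CUMS 4–6 against control only the brightest probe set of each member was followed, and no gene of the related lists. The values that changed sign there were Fos (−0.60 to 0.23), Jun (−0.41 to 0.04), Gadd45b (−0.56 to 0.05), Klf6 (−0.20 to 0.17) and Myc (−0.62 to 0.30). In all CUMS against control they were Jun (−0.17 to 0.03, probe set without the suffix), Klf6 (−0.21 to 0.15, −0.38 to 0.07 and −0.27 to 0.19), Myc (−0.75 to 0.08), Map2k3 (−0.04 to 0.12), Max (−0.05 to 0.05), Mxi1 (−0.11 to 0.20) and Mlx (−0.01 to 0.16). Array weights turned Klf6 to 0.06 in CUMS 4–6 and to 0.00 and 0.07 in all CUMS. Centring on the median turned Jun to 0.00 in CUMS 1–3 and Max to 0.04 in all CUMS.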

Other observations

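The genes outside the set whose log2 signal followed the mean of the members most closely over the 9 arrays were Ifitm2, Rcn2, Ifi30, Cd300a and Adgre5. They were picked as the highest of all genes, so their correlations are a description and were not tested, and the arrays share the 3 groups and control 3. Ifitm2, an interferon-induced membrane protein, had a Pearson r of 0.98 and a Spearman rho of 0.95, and r was 0.89 without CUMS 2 and control 3 (7 arrays). It read 459, 371 and 531 in CUMS 1–3, 586, 473 and 784 in CUMS 4–6, and 705, 636 and 1616 in control 1–3. For Rcn2, a calcium-binding protein of the endoplasmic reticulum, r was 0.98 and rho 0.87 (r 0.89 without these 2 arrays). Ifi30, a lysosomal reductase of antigen-presenting cells, had 0.98 and 0.90 (0.84), Cd300a, an inhibitory receptor of myeloid cells, 0.98 and 0.87 (0.82), and Adgre5, an adhesion receptor of leukocytes, 0.97 and 0.92 (0.90).

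CUMS 4 was the highest of the 6 CUMS rats not only for 5 of 9 members but also for 9 of 18 genes of the feedback inhibitor list (50%). The same held for 8 of 18 other immediate early transcription factors (44.4%) and 5 of 7 secreted early response proteins (71.4%), beside 20.3% of all genes. It was highest for 1 of 14 growth targets of Myc (7.14%) and 0 of 8 glucocorticoid responsive genes. Among cell type markers it was highest for 3 of 7 of stellate cells and fibroblasts (42.9%), 1 of 4 of bile duct cells, 1 of 3 of neutrophils and monocytes, 1 of 7 of hepatocytes and 0 of 7 of Kupffer cells and macrophages. Its ratio of 3′ to 5′ signal was 4.96 for beta-actin and 1.46 for GAPDH. These counts were made after the values were seen and carry no test.

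Of the remaining marker lists, the 6 measured endothelial genes ran from −0.06 to 0.04 in CUMS 1–3, −0.07 to 0.13 in CUMS 4–6 and −0.19 to 0.32 in control, as mean log2 signal minus the control mean. Control 3 was highest for 3 of the 6 endothelial genes, while Kdr was lowest there, at 3441. The 3 neutrophil and monocyte genes ran from −0.67 to 1.55 in CUMS 1–3, −0.49 to 0.23 in CUMS 4–6 and −0.44 to 0.82 in control. The 2 lymphocyte genes ran from −0.89 to −0.15 in CUMS 1–3, −0.54 to −0.22 in CUMS 4–6 and −0.50 to 0.45 in control, and the 3 red blood cell genes from −0.10 to 0.13 in CUMS 1–3, −0.22 to 0.30 in CUMS 4–6 and −0.17 to 0.15 in control.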
